A study of Homo sapiens with 8 samples.

Results

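The 10 genes described here encode immediate early transcription factors: FOS, FOSB, JUN, JUNB, JUND, EGR1, EGR2, ATF3, IER2 and NR4A1. They were chosen by name from the families that cells switch on first after a stimulus, and were found by gene symbol among the 23710 genes of the count tables. All 10 were among the 12536 genes with enough reads to be tested. RNA had been sequenced from a human lymphoblastoid cell line, which is made of B cells that Epstein-Barr virus has transformed so that they keep dividing. The 4 groups, of 2 libraries each, were control cells, cells given 5 µM hexavalent chromium (Cr6) for 24 h, and cells 3 and 7 days post treatment with the same dose and duration. The labels count days post treatment, whereas the series text counts time from the start of exposure, so the day on which counting began is not settled. All libraries came from 1 line, and unexposed cells of the later days were not analysed here, so exposure and time in culture cannot be told apart. The labels call the replicates biological without saying what separated them, and the p-values measure the spread between these libraries.

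Immediate early genes need no new protein to be switched on. Factors already bound at their promoters, such as serum response factor with its ETS partners and CREB, are activated by kinases within minutes of a growth factor, antigen receptor signal or stress, and the transcripts are then degraded quickly. FOS and FOSB proteins cannot pair with themselves and bind DNA as AP-1 dimers with JUN, JUNB or JUND. EGR1 and EGR2 are zinc finger factors that B cells induce on antigen receptor signalling. ATF3 is a bZIP factor induced by many stresses, among them DNA damage and the integrated stress response. NR4A1 is an orphan nuclear receptor. In continuously growing cultures the same transcripts also have a steady level. Samples at 24 h and later do not cover the first minutes of exposure, and whether the levels in them were steady was not tested.

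The promoters of FOS and FOSB, the 2 genes that were higher in every library of 3 and 7 days than in any of control or 24 h, are shown with that of EGR1, whose levels had a different pattern. Each is the 250 bases before the gene's start in RefSeq on GRCh38.p14, read 5′ to 3′ on the plus strand. That build is not the one named for the read counts, and its positions were used for the sequences alone. FOS lies at chr14:75278578-75278827, FOSB at chr19:45467746-45467995 and EGR1 at chr5:138465229-138465478. Capitals mark matches, on either strand, to TGACG (the core of the cAMP response element, CGTCA on the other strand), the CArG box of serum response factor, GCGNGGGCG (the site of EGR proteins) and TATAAA.
FOS: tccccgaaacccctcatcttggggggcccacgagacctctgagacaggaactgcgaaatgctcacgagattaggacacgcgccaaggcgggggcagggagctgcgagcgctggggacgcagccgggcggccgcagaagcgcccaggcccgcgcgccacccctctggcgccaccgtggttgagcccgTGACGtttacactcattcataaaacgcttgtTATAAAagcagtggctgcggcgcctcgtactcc
FOSB: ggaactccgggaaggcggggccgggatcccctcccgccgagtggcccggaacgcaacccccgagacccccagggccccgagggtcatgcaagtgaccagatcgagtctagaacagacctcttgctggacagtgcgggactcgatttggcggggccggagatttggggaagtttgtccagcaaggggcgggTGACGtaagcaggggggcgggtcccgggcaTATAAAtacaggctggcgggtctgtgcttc
EGR1: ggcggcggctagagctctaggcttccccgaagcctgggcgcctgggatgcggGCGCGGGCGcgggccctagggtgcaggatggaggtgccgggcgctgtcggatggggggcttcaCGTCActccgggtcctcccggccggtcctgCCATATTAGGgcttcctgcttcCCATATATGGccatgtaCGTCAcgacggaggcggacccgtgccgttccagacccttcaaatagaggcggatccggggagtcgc
FOS and FOSB held the same motifs in the same order in these windows. FOS held TGACG at -64 to -60 and TATAAA at -33 to -28 from the start, and FOSB held them at -60 to -56 and -30 to -25. EGR1 held CArG boxes at -105 to -96 and -83 to -74, CGTCA at -135 to -131 and -66 to -62, and an EGR site at -198 to -190. All 10 genes matched the RefSeq table, with 14 windows in all because EGR2, ATF3 and NR4A1 have more than 1 start. The start from which ATF3 is induced may not be among them, so a missing match for ATF3 covers these windows alone. TGACG was found in 8 of the 10 genes, and in 21.2% of 35116 RefSeq windows. A gene was counted if any of its windows matched, whereas the percentages here are of single windows, so the units differ. TATAAA was found in 4 genes (10.7% of windows), in ATF3 only at -230 to -225. The CArG box was found in EGR1 and EGR2 (1.16%), and the EGR site in EGR1 (8.41%). The full cAMP response element TGACGTCA, which holds the TGACG core on both strands, was found only in JUND among the 10 (1.65%), and the AP-1 site TGANTCA in none (6.57%). A match describes the letters of the window and was not tested as a site of binding. Bases outside the windows were not searched, so a gene without a match here, such as FOS for the CArG box, may hold the site elsewhere.

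The libraries held 9478459 to 11110830 reads counted in genes. Values below are CPM, the usual scaling of read counts by library size, here with TMM factors. CPM is not corrected for gene length, so levels are compared between libraries and not between genes. All 9 B cell markers used (CD79A, PAX5 and others) were at 10 CPM or more in every library. No T or NK cell, stromal or epithelial marker reached 10 CPM in any library, ITGAM was the only myeloid marker to do so, and all 5 erythroid markers were at 0. The libraries did not resemble each other by group alone. By their counts over all genes, control and 24 h libraries were closest to each other across the replicate numbers (1 with 2, and 2 with 1), and each 3 day library to the 7 day library of its own number. The 3 and 7 day libraries of replicate 1 stood apart from the other 6, with 36.5% to 39.4% of reads entered under no feature, against 44.4% to 51.5%, and with 12.5% of gene counts in the 20 highest genes, against 8.88% to 9.65%. As these are bulk RNA samples, fewer cells with a transcript and less of it per cell cannot be told apart.

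None of the 10 genes passed the threshold of the main test in any comparison, and few genes of any kind did. With edgeR's quasi-likelihood test and an adjusted p under 0.05 over all 12536 genes, the share called was 0% for 24 h, 3 days and 7 days against control, for 3 and 7 days against 24 h, and for 7 days against 3 days. At an unadjusted p under 0.05, 22 genes (0.175%) passed at 24 h against control, 663 (5.29%) at 3 days and 619 (4.94%) at 7 days. Among the 10 the counts were 0, 2 and 2. FOS and FOSB were the 2 at both times. DESeq2 called 0, 9 and 15 genes in these comparisons, limma-voom called 0 in each, and neither called any of the 10. A further contrast set the 4 libraries of 3 and 7 days (late) against the 4 of control and 24 h (early). It was taken over from earlier results of these data, in which late libraries had stood apart, and is a description of that division. In it 1 gene of 12536 was called (0.00798%), which was none of the 10, and 1778 genes (14.2%) had an unadjusted p under 0.05. With 2 libraries a group the spread between replicates decided most of these values, so the levels in each library are given for every gene.

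**Figure D1:**
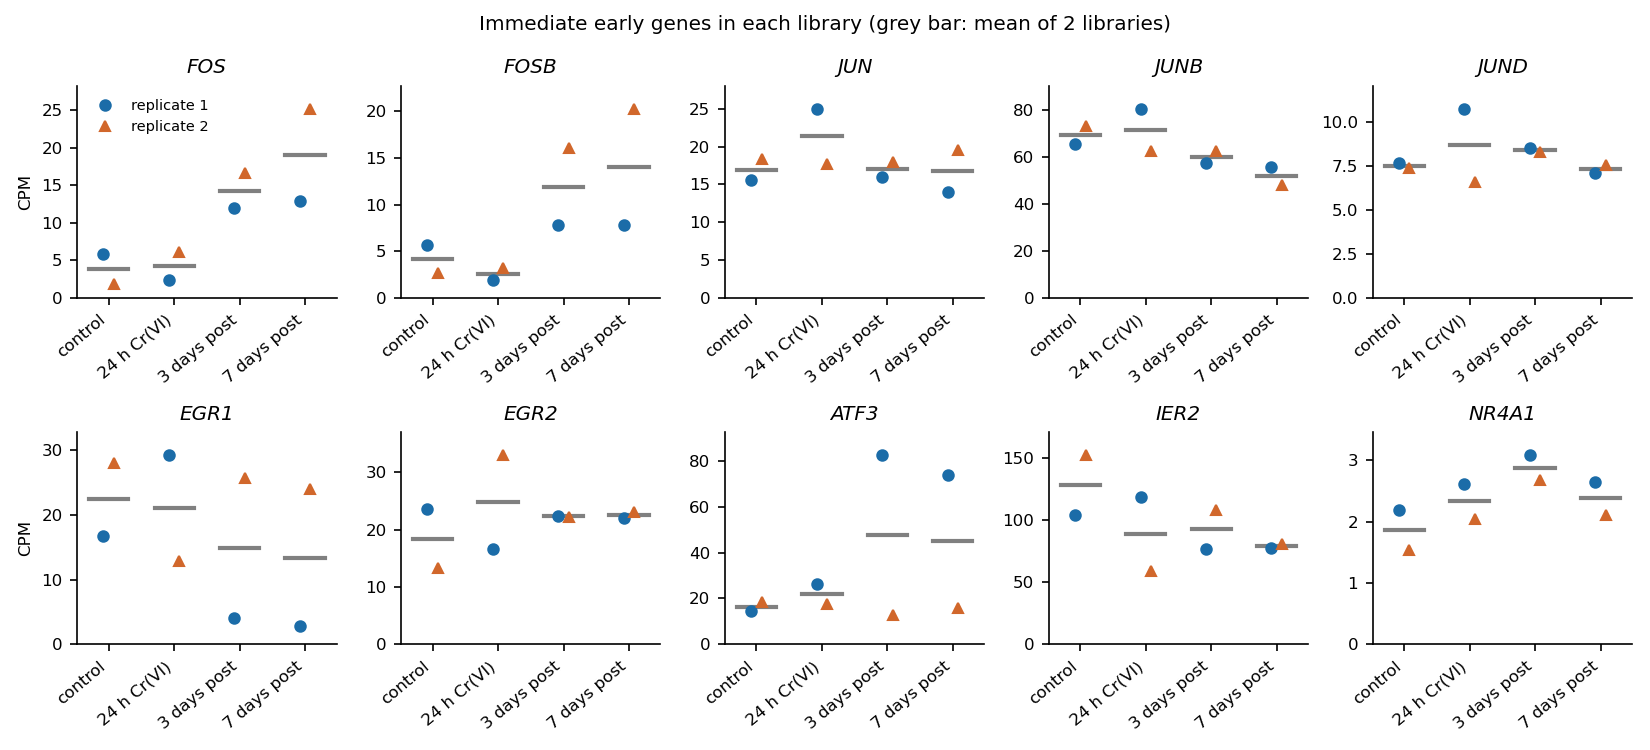
CPM of each immediate early gene (y axis, a separate scale per gene, starting at 0) in the control, 24 h, 3 day and 7 day libraries (x axis), with circles for replicate 1, triangles for replicate 2 and grey bars for the mean of the 2 libraries. FOS and FOSB are higher in all 4 late libraries than in any early library, whereas ATF3 and EGR1 part between the replicates at 3 and 7 days.

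FOS was higher in every library of 3 and 7 days than in any library of control or 24 h cells. FOS stood at 5.80 and 1.84 CPM in control, 2.41 and 6.14 CPM at 24 h, 11.9 and 16.6 CPM at 3 days, and 12.9 and 25.2 CPM at 7 days (replicate 1, then replicate 2). The lowest late library had 11.9 CPM and the highest early library 6.14 CPM, so the divisions did not overlap. The reads behind these levels ranged from 18 in control replicate 2 to 251 in 7 day replicate 2. At 7 days FOS averaged 19.1 ± 8.70 CPM, against 3.82 ± 2.80 CPM in control (SD, n = 2 each), a log2 fold change of 2.31 ± 0.63 (SE) with an unadjusted p of 0.00642 and an adjusted p of 0.851. Without a count filter, where 0.0877% of genes were called, the adjusted p was 0.0303, and over 20 alternatives it ran from 0.0303 to 1. The value at 7 days was 3.37 without control replicate 1 and 1.72 without control replicate 2. At 3 days it averaged 14.3 ± 3.30 CPM, a log2 fold change against control of 1.89 ± 0.63 (adjusted p = 0.843). At 24 h it averaged 4.27 ± 2.63 CPM, and the log2 fold change of 0.15 ± 0.64 was smaller than its error. Between 7 and 3 days the log2 fold change was 0.42 ± 0.59, also within its error.

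FOSB, a close relative of FOS, had the same division. It stood at 5.62 and 2.66 CPM in control, 1.91 and 3.16 CPM at 24 h, 7.81 and 16.1 CPM at 3 days, and 7.84 and 20.3 CPM at 7 days. The lowest late library, at 7.81 CPM, lay above the highest early library, control replicate 1 at 5.62 CPM. At both late times replicate 2 was the higher library for FOSB, by 2.06-fold at 3 days and 2.59-fold at 7 days, and for FOS by 1.39-fold and 1.95-fold. FOSB's log2 fold change against control was 1.52 ± 0.60 at 3 days (unadjusted p = 0.0343, adjusted p = 0.843) and 1.76 ± 0.60 at 7 days (unadjusted p = 0.0188, adjusted p = 0.851). Against the 24 h libraries, where FOSB was at its lowest mean, the log2 fold change was 2.23 ± 0.62 at 3 days and 2.46 ± 0.63 at 7 days, and for FOS it was 1.73 ± 0.62 and 2.15 ± 0.63 (adjusted p = 0.742, 0.736, 0.757 and 0.736 in that order). Against 24 h, edgeR without a count filter called FOSB at 3 days (0.115% of genes called) and FOS and FOSB at 7 days (0.137%), and DESeq2 called FOSB at 7 days (0.169%). At 24 h against control FOSB's was -0.71 ± 0.63, with overlapping libraries.

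In the contrast of late with early libraries FOS had a log2 fold change of 2.02 ± 0.44, which is 4.05-fold, and FOSB one of 1.99 ± 0.43, which is 3.98-fold (unadjusted p = 0.00183 and 0.00169, adjusted p = 0.177 and 0.176). Over all genes tested, 5.93% were higher in every late library than in every early one and 7.43% were lower in every one. Of the 10 genes, FOS and FOSB were higher in this way and none was lower, and the median log2 fold change of the 10 was 0.01, as it was over all genes. The calls for this pair depended on the tool and the filter. DESeq2, which called 2.25% of its genes in this contrast, gave FOS an adjusted p of 0.000726 and FOSB one of 0.00103, and edgeR without a count filter, which called 2.68%, gave 0.000362 and 0.000487. Over the 19 alternatives with a value for single genes the adjusted p ran from 0.000362 to 0.669 for FOS and from 0.000487 to 0.715 for FOSB, with log2 fold changes from 1.61 to 2.55 and from 1.27 to 2.47. Without the late libraries of replicate 1 the log2 fold changes were 2.33 for FOS and 2.47 for FOSB, and without those of replicate 2 they were 1.61 and 1.27. As each 3 day library resembled the 7 day library of its number, the late side is not 4 unrelated libraries.

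**Figure D2:**
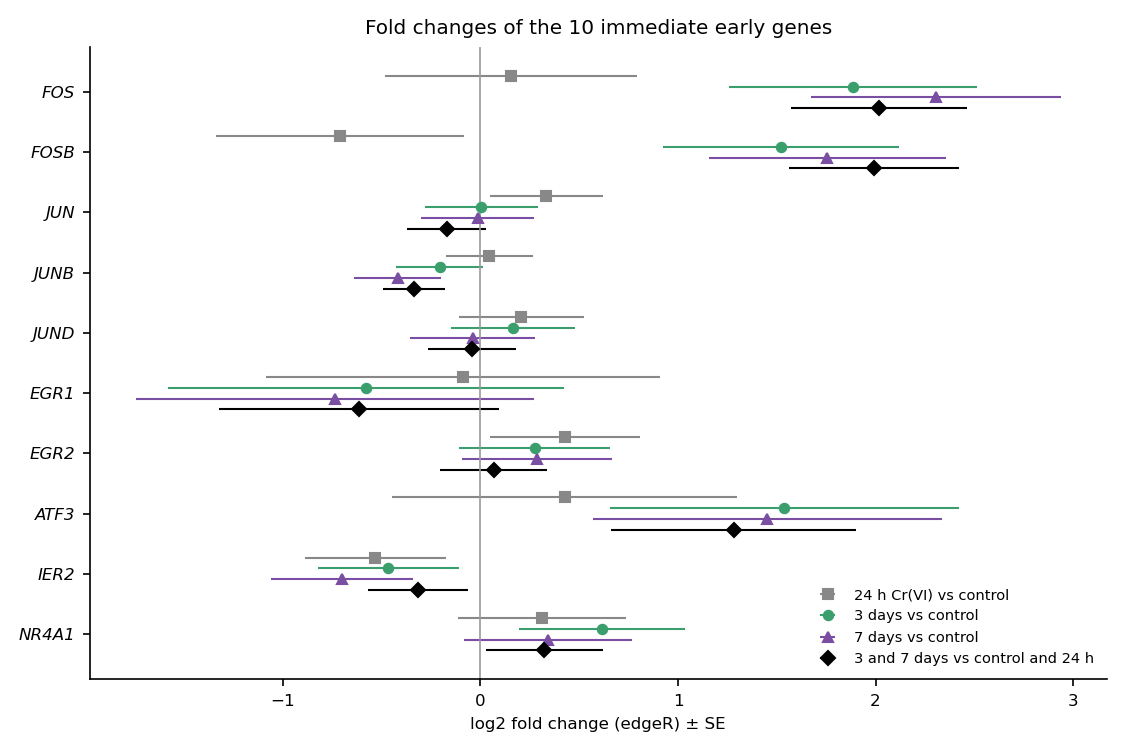
Log2 fold change of each immediate early gene (x axis; points with bars of 1 SE from edgeR) at 24 h, 3 days and 7 days against control, and of 3 and 7 days against control and 24 h. FOS and FOSB sit between 1.52 and 2.31 in the comparisons that involve late libraries, and the bars of ATF3 and EGR1 are among the widest because their replicates part.

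Transcripts of the JUN genes, whose proteins are the partners of FOS and FOSB in AP-1, varied less across the libraries than those of FOS and FOSB. JUN stood at 15.5 and 18.3 CPM in control, 25.0 and 17.7 CPM at 24 h, 16.0 and 17.9 CPM at 3 days, and 14.0 and 19.5 CPM at 7 days. The groups overlapped, and only 24 h replicate 1 lay above 20 CPM. Its largest log2 fold change against control was 0.33 ± 0.28 at 24 h (adjusted p = 1), and in the contrast of late with early it was -0.17 ± 0.20. At 3 days against control it was 0.01 ± 0.29, and its sign turned under some of the other settings. The highest library of JUN was 1.78 times its lowest, that of JUNB 1.68 times and that of JUND 1.63 times, against 13.7 times for FOS and 10.6 times for FOSB. Among the ranges of all genes tested, these lay at percentiles 40.3, 33.7 and 29.6 for the JUN genes, and 97.6 and 96.7 for FOS and FOSB.

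JUNB, which forms AP-1 dimers that are often less active than those of JUN, had its lowest levels at 7 days. It stood at 65.5 and 73.0 CPM in control, 80.4 and 62.3 CPM at 24 h, 57.5 and 62.5 CPM at 3 days, and 55.8 and 47.7 CPM at 7 days. Both libraries of 3 days and both of 7 days lay below both control libraries, while 24 h replicate 2 lay just under the higher 3 day library. The log2 fold change was -0.42 ± 0.22 at 7 days against control (adjusted p = 0.851) and -0.34 ± 0.16 in the contrast of late with early (unadjusted p = 0.0633, adjusted p = 0.364). RefSeq places JUNB across part of HOOK2, and because the counting strand is not given in the sources used here, reads of the 2 genes cannot be told apart where they overlap.

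JUND, the JUN family member that many resting cells express, had 7.64 and 7.37 CPM in control, 10.8 and 6.60 CPM at 24 h, 8.53 and 8.30 CPM at 3 days, and 7.07 and 7.54 CPM at 7 days. The 3 day libraries lay just above the control libraries, by a log2 fold change of 0.16 ± 0.31 (adjusted p = 0.914), and the 7 day libraries overlapped them. In the contrast of late with early the value was -0.04 ± 0.22.

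EGR1 parted the replicates of the late groups rather than the groups. It stood at 16.8 and 28.0 CPM in control, 29.3 and 12.9 CPM at 24 h, 4.01 and 25.8 CPM at 3 days, and 2.76 and 24.0 CPM at 7 days. The low values came from replicate 1 at 3 days, with 39 reads, and replicate 1 at 7 days, with 25 reads, whereas replicate 2 stayed inside the range of the control libraries at both times. Replicate 2 exceeded replicate 1 by 6.43-fold at 3 days and 8.70-fold at 7 days. Over all genes, 0.59% had replicate 2 above replicate 1 by more than 4-fold at both late times, and EGR1 was the only one of the 10 among them. The log2 fold change of late against early was -0.62 ± 0.71 (adjusted p = 0.67). It was 0.20 without the late libraries of replicate 1 and -2.69 without those of replicate 2, where the adjusted p was 0.0107 and 29.8% of all genes were called. The adjusted p for EGR1 in this contrast ran from 0.0107 to 0.954 over the same 19 alternatives.

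EGR2, a relative of EGR1 with the same binding site, did not follow it at the late times. It stood at 23.5 and 13.3 CPM in control, 16.6 and 33.0 CPM at 24 h, 22.4 and 22.2 CPM at 3 days, and 22.0 and 23.0 CPM at 7 days. The 4 late libraries lay within 22.0 to 23.0 CPM, inside the range of the early libraries, which ran from 13.3 to 33.0 CPM. The log2 fold change of late against early was 0.07 ± 0.27 (adjusted p = 0.91). In the early libraries EGR2 was higher in control replicate 1 and 24 h replicate 2, and EGR1 was higher in the other 2. FOS had its higher early levels in the same libraries as EGR2.

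ATF3 had its 2 highest levels in the late libraries of replicate 1 and its lowest in a late library of replicate 2. It stood at 14.5 and 18.3 CPM in control, 26.4 and 17.7 CPM at 24 h, 82.6 and 12.8 CPM at 3 days, and 74.1 and 15.8 CPM at 7 days. The replicate 1 libraries of 3 and 7 days, with 804 and 671 reads, exceeded the replicate 2 libraries, with 144 and 157 reads, by 6.43-fold and 4.70-fold. Over all genes, 0.71% had replicate 1 above replicate 2 by more than 4-fold at both late times, and ATF3 was the only one of the 10 among them. At 3 days ATF3 averaged 47.7 ± 49.3 CPM, against 16.4 ± 2.71 CPM in control (SD, n = 2 each), and at 7 days 44.9 ± 41.2 CPM. The log2 fold change of late against early was 1.28 ± 0.62 (unadjusted p = 0.072, adjusted p = 0.376). It was -0.41 without the late libraries of replicate 1. Without those of replicate 2, a setting chosen after seeing the data, it was 2.05. With edgeR without a count filter, where 2.68% of all genes were called, the value was 1.28 with an adjusted p of 0.0422. Whether ATF3 was called thus depended on the filter and on the libraries used.

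Targets of p53, of which ATF3 is among those reported, had the same division by library at the late times, with exceptions. Of the 25 p53 target genes listed, 24 were in the count tables, all were tested, and none was at 0 in any library. Their median log2 CPM relative to control was 1.13 in 3 day replicate 1 and 1.08 in 7 day replicate 1, and -0.29 and -0.42 in the replicate 2 libraries. It was -0.13 and 0.01 at 24 h. The summed level of the 24 genes was 7326 and 7510 CPM in the late libraries of replicate 1, 3740 and 3498 CPM in those of replicate 2, and 3960 to 4611 CPM in the early libraries. At both late times 23 of the 24 were higher in replicate 1 than in replicate 2, as were 41.6% of all genes, and BTG2, an antiproliferative gene, was the exception. CCNG1 was higher in all 4 late libraries, with 725 and 513 CPM at 3 days and 758 and 444 CPM at 7 days, against 319 to 406 CPM in the early libraries. In the contrast of late with early none of the 24 was called, 5 had an unadjusted p under 0.05 and were higher (6.94% of all genes did so), and the median log2 fold change was 0.61, against 0.01 over all genes. The 4 with the smallest p were CCNG1 (0.70), BBC3 (2.15), GDF15 (2.43) and PPM1D (1.41), which encode a cyclin G, a BH3-only death protein, a secreted stress cytokine and a phosphatase that restrains p53. For the genes that accompany ATF3 in the ATF4 stress response the libraries parted less by the median. Their median log2 CPM relative to control was 0.85 in 3 day replicate 1 and 0.66 in 7 day replicate 1, 0.36 and 0.21 in the replicate 2 libraries, and 0.54 and -0.34 at 24 h. Of 12 tested, none was called in the late contrast and 2 had an unadjusted p under 0.05, DDIT4 (0.89, an inhibitor of mTORC1 signalling) and ATF4 itself (0.61). SESN2, which is also on the p53 list, had 179.9 and 147.0 CPM in the late libraries of replicate 1 and 26.1 and 24.6 CPM in those of replicate 2. STC2 did not part in this way, with 63.5 and 54.8 CPM at 3 days and 65.6 and 70.0 CPM at 7 days. The 9 B cell markers summed to 7161 and 6897 CPM in the late libraries of replicate 1 and 4241 and 4456 CPM in those of replicate 2, a sum carried by the antigen presentation genes HLA-DRA and CD74. Their median log2 CPM relative to control ran the other way, at -0.24 and -0.47 in replicate 1 and 0.08 and -0.05 in replicate 2. CD40 and MS4A1 were lower in every late library than in every early one, as were 7.43% of all genes. The part of any of these in the levels of ATF3 and EGR1 was not tested.

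**Figure D3:**
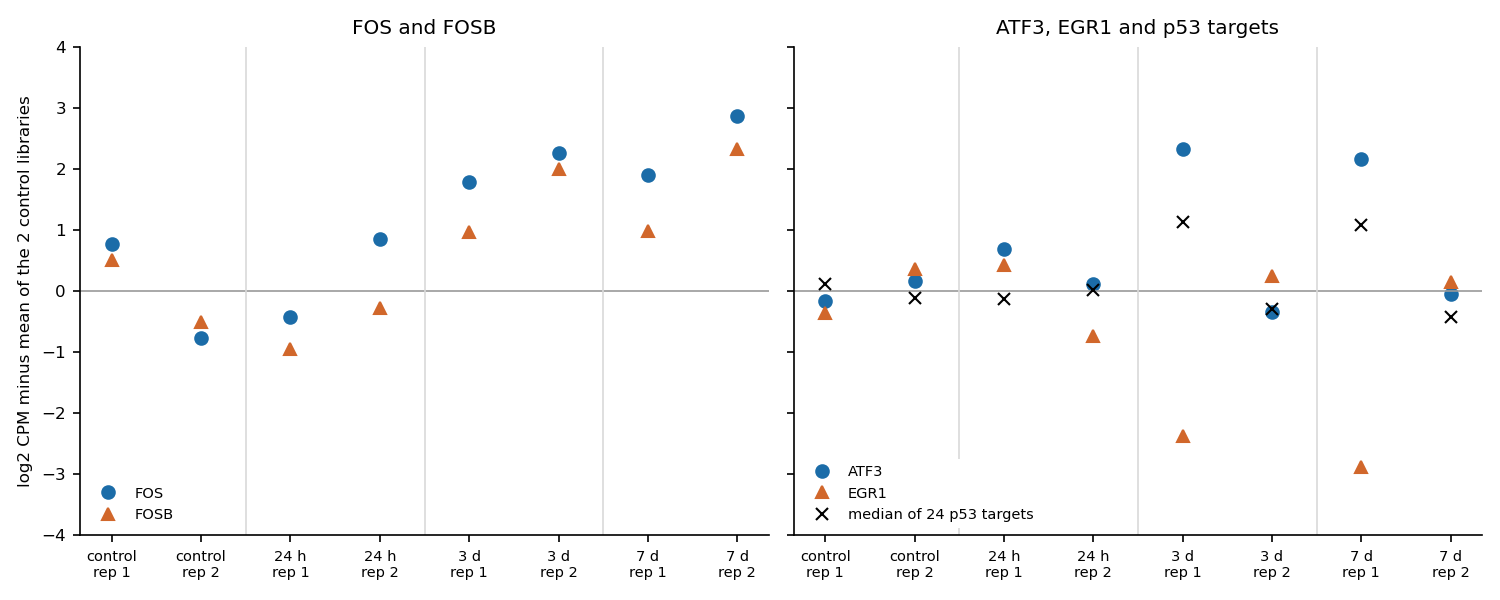
Log2 CPM minus the mean of the 2 control libraries (y axis) in each library (x axis), for FOS and FOSB on the left and for ATF3, EGR1 and the median of 24 p53 targets on the right. FOS and FOSB lie above 0.97 in all 4 late libraries, while ATF3 and the p53 targets are high and EGR1 is low in replicate 1 of 3 and 7 days alone.

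IER2, an immediate early nuclear protein, had its highest level in a control library. It stood at 104 and 152 CPM in control, 118 and 59.0 CPM at 24 h, 77.0 and 109 CPM at 3 days, and 77.3 and 80.6 CPM at 7 days. The lowest library was 24 h replicate 2. Both 7 day libraries lay below both control libraries, by a log2 fold change of -0.70 ± 0.36 (unadjusted p = 0.0873, adjusted p = 0.851). In the contrast of late with early the value was -0.32 ± 0.25 (adjusted p = 0.542), and the libraries overlapped.

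NR4A1 had the fewest reads of the 10, from 15 to 30 a library, so its levels are the least precise. It stood at 2.20 and 1.54 CPM in control, 2.61 and 2.05 CPM at 24 h, 3.08 and 2.68 CPM at 3 days, and 2.65 and 2.11 CPM at 7 days. The 3 day libraries lay above both control libraries, by a log2 fold change of 0.62 ± 0.42 (adjusted p = 0.843), and the 7 day libraries overlapped them. RefSeq places the antisense gene NR4A1AS across it, from which its reads cannot be told apart without the counting strand.

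Counted over the 10, the libraries of 24 h and of control overlapped for every gene, while 23.9% of all genes had no overlap there. At 3 days against control FOS, FOSB, JUND and NR4A1 were higher and JUNB lower without overlap, 5 of 10, against 33.9% of all genes. At 7 days FOS and FOSB were higher and JUNB and IER2 lower, 4 of 10, against 34.5%. With 10 genes, no difference from genes at large is read from these counts.

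Immediate early genes outside the 10 gave no call either. Of 40 listed, 33 were tested and none was called in the late contrast, and their median log2 fold change was -0.05. ID3 and KLF2 were higher in every late library, and ID2, IER3 and PHLDA1 were lower in every one. Over all genes tested, 5.93% were higher and 7.43% lower in this way, and no difference from genes at large is read from these counts. ID3, an inhibitor of E proteins, had 26.6 and 18.6 CPM at 3 days and 26.2 and 18.1 CPM at 7 days, against 7.73 and 11.4 CPM in control and 16.3 and 6.88 CPM at 24 h (log2 fold change 1.09 ± 0.31, adjusted p = 0.265). KLF2, a factor of lymphocyte quiescence, stayed under 5 CPM in every library (1.35 ± 0.51, adjusted p = 0.318). ID2, which inhibits the same proteins as ID3, had a value of the opposite sign, -0.66 ± 0.21 (adjusted p = 0.275), and IER3, a stress-induced survival gene, one of -0.73 ± 0.24 (adjusted p = 0.287).

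Of the other AP-1 and related bZIP genes, 10 of 13 were tested, none was called in the late contrast and the median was -0.10. JDP2, a repressor that dimerizes with JUN proteins, was higher in every late library, with 8.33 and 8.12 CPM at 3 days and 7.84 and 6.03 CPM at 7 days, against 4.37 to 5.63 CPM in the early libraries (0.58 ± 0.22, adjusted p = 0.318). FOSL1, a FOS relative, did not share the pattern of FOS. It was high in the late libraries of replicate 1, at 12.3 CPM at 3 days and 14.6 CPM at 7 days, against 2.23 and 1.31 CPM in those of replicate 2 and 1.39 to 3.38 CPM in the early libraries. That is the division of ATF3.

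Genes upstream of and opposed to immediate early transcription gave no calls either. All 26 listed upstream genes (SRF partners, CREB and their kinases) were tested, with a median of 0.11, and ELK3, an ETS partner of serum response factor, was lower in every late library (-0.75 ± 0.23, adjusted p = 0.27). So was MKL2, a coactivator of serum response factor (-0.64 ± 0.32), though mainly in replicate 1. MKL2 had 18.8 and 20.2 CPM in the late libraries of replicate 1, 46.1 and 40.9 CPM in those of replicate 2, and 46.6 to 51.1 CPM in the early libraries. The kinase gene MAPK9 (0.23 ± 0.13) and the coactivator gene EP300 (0.20 ± 0.15) were higher in every late library. Over all genes tested, 7.43% were lower and 5.93% higher in this way, and no difference from genes at large is read from these genes. A list of 16 genes held those that oppose MAP kinase signalling or, like NAB1, NAB2 and ZFP36, the factors and transcripts it induces. Of these, 14 were tested, 11 of them lower and 3 higher, with a median of -0.13. DUSP2, a nuclear phosphatase of ERK, had the smallest p of these, at -0.83 ± 0.28 (adjusted p = 0.296).

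**Figure D4:**
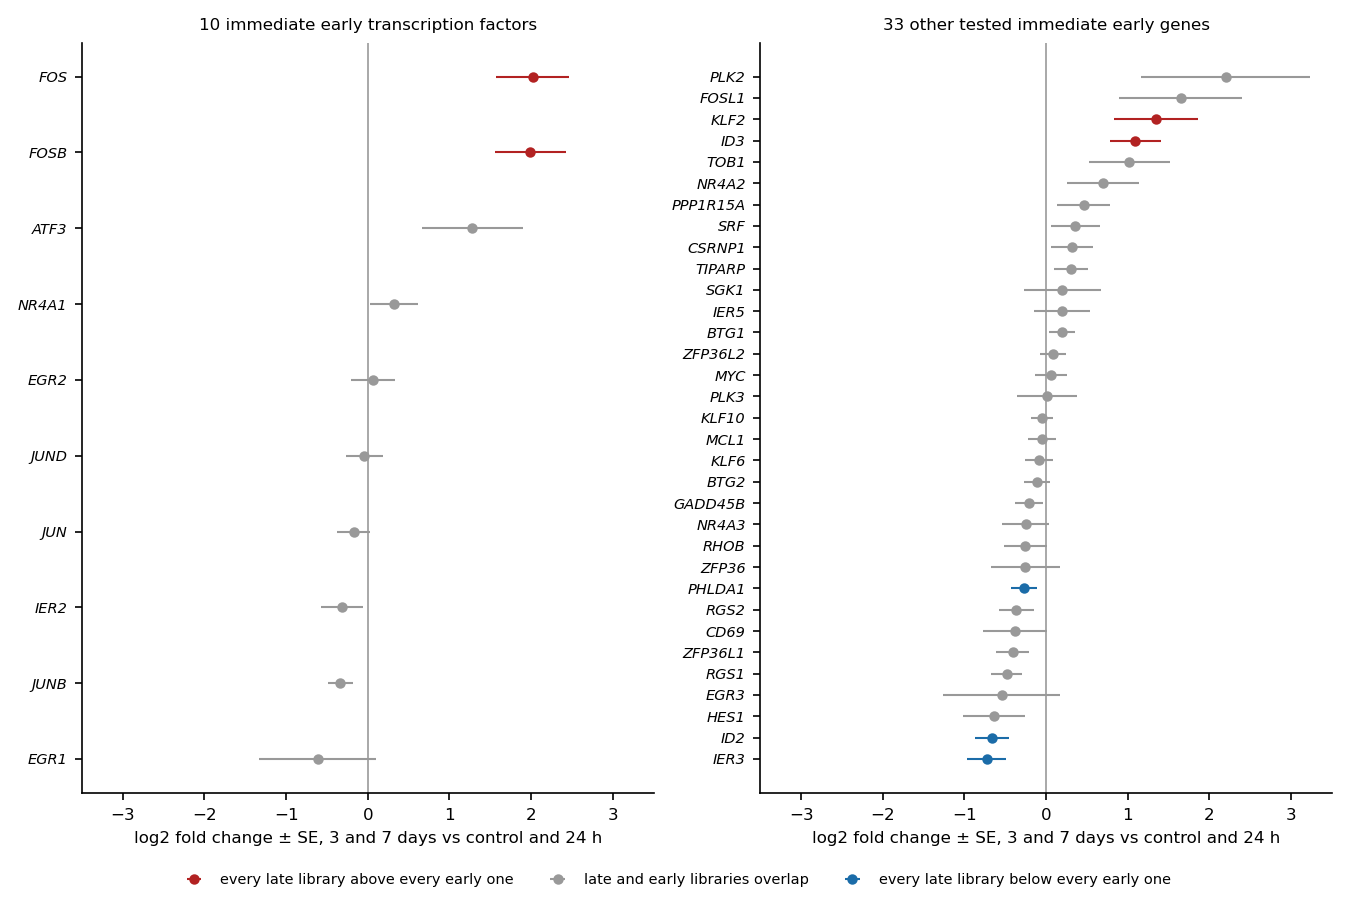
Log2 fold change of 3 and 7 days against control and 24 h (x axis; points with bars of 1 SE from edgeR), for the 10 immediate early transcription factors on the left and the 33 other tested immediate early genes on the right, coloured where all late libraries lay above (red) or below (blue) all early ones. FOS and FOSB, at 2.02 and 1.99, are the separated genes on the left, and on the right 2 genes are higher and 3 lower. Over all genes tested, 5.93% were higher and 7.43% lower in this way.

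The genes whose levels over the 8 libraries were most like each of the 10 are given as a description, since libraries that resemble each other raise such correlations (Pearson r of log2 CPM, all genes measured in the same libraries). FOS was closest to NCAPD2 (r = 0.98), a condensin subunit, and PEG10 (0.98), and FOSB to PARP1 (0.98), the poly(ADP-ribose) polymerase of DNA repair, and SND1 (0.97). EGR1 was closest to TMC8 (0.998) and TMEM63A (0.997). ATF3 was closest to MAP1LC3B (0.99), an autophagy protein, and TNFRSF10B (0.99), a TRAIL receptor that is also on the p53 list. The closest genes were BCO2 (0.96) and EXOSC7 (0.94) for JUN, CD300LB (0.96) and MINOS1P1 (0.95) for JUNB, SRD5A1 and ZSCAN26 (both 0.93) for JUND, DYNC1LI2 (0.97) and SLC39A14 (0.96) for EGR2, MMAA (0.96) and FAM219B (0.94) for IER2, and NUTF2 (0.94) and CAMSAP1 (0.92) for NR4A1.

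NCAPD2 shows how far a like pattern can differ in size. It stood at 429.6 and 472.5 CPM at 3 days and 453.5 and 522.9 CPM at 7 days, against 361.3 and 268.9 CPM in control and 250.1 and 329.3 CPM at 24 h, so that, as for FOS, control replicate 1 and 24 h replicate 2 were the higher early libraries. TNFRSF10B, the neighbour of ATF3 in pattern, stood at 472.1 and 429.3 CPM in the late libraries of replicate 1, 179.3 and 178.6 CPM in those of replicate 2, and 195.2 to 242.6 CPM in the early libraries.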

How the data were processed

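Each library's deposited table holds 1 whole-number count of reads for each gene symbol, and replicates were not pooled. The submitters' processing notes name Trim Galore, Bowtie2, SAMtools, DESeq2 1.8.1, R 3.2.3 and the builds GRCh37 and hg19. No counting tool, strand setting or annotation release is named in the sources used here. The 5 entries of a table that name no gene took 42.6% to 57.5% of reads and entered neither library sizes nor tests. RNA was selected with poly-T beads and sequenced as paired reads, per the labels' protocols.

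Genes were kept by filterByExpr of edgeR 4.0.16 (minimum count 10, minimum total 15), scaled with TMM, and tested with the quasi-likelihood test in R 4.3.3, with all 8 libraries in a fit of 1 coefficient per group. P-values were adjusted by Benjamini-Hochberg over the 12536 genes of each of 7 comparisons, with a threshold of 0.05. Residual degrees of freedom were 4, prior ones 4.09, and the biological coefficient of variation common to all genes 0.276. Log2 CPM used a prior count of 2, and standard errors were derived from the F statistic. The procedure was run on simulated counts with known changes, drawn independently for each library. These lacked the resemblance between libraries seen here, so they do not show how the test behaves with it. Alternatives included DESeq2 1.42.0 and limma 3.58.1 (voom).

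The 10 genes, the other gene lists and the contrast of late with early libraries were chosen with earlier results of these data known. From each other list described, up to 4 tested genes with the smallest p in that contrast were to be named. A further B cell marker is not reported here. PHLDA1, BTG2, HLA-DRA, MKL2, MAPK9 and EP300 fall outside that rule and were named after their values were seen. For likeness, the 2 genes with the highest r were taken among tested genes with a mean of at least 2 CPM and a symbol that is no clone name.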

Additional observations from a re-analysis of the deposited data

How the results depend on the processing

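Of 21 alternatives (18 planned, 3 chosen after seeing the data), 20 gave values for single genes. These cover 24 h, 3 days and 7 days against control, and late against early, but not the comparisons with 24 h or between the late times. In them 738 recomputed log2 fold changes of the 10 genes kept direction and side of the threshold, 34 turned direction and 14 passed the threshold. For the number of genes called (main test: 0 in the 6 comparisons between groups, 1 in late against early), DESeq2 on all genes gave 9 and 15 at 3 and 7 days against control, 19 and 22 at 3 and 7 days against 24 h, and 277 in late against early. The edgeR test without a count filter gave 11, 16, 21, 25 and 489 in that order. Chosen after seeing the data, DESeq2 on the filtered genes gave 13, 18, 19, 33 and 296, and leaving out both late libraries of replicate 2 gave 334, 374, 813, 716 and 3824. Late against early gave 0 without both late libraries of replicate 1, and 0 to 0 with each library left out in turn. The cause of these differences was not tested. The replicate block gave 0 in the 6 comparisons between groups and 1 in late against early, and called none of the 10 genes. The replicate numbers did not pair all 4 groups. Replicate differences correlated at 0.81 between 3 and 7 days, 0.34 between 3 days and control and 0.32 between 7 days and control, but at -0.60 between 24 h and control, -0.32 between 3 days and 24 h and -0.31 between 7 days and 24 h. With the early numbers crossed, a block chosen after seeing the data called 94 genes at 24 h, 4407 and 4392 at 3 and 7 days against control, 4816 and 4895 against 24 h, 10 at 7 against 3 days and 6387 in late against early. Each of these numbers is out of 12536 genes tested. Of the 10 genes it called 1, 5, 6, 4, 5, 0 and 6 in that order, and no difference from genes at large is read from these counts. The filter of 50 counts in 2 libraries left no value for NR4A1. The fit of only the groups compared was not run for late against early, which uses all libraries. With 1 library left in a group, that library was assumed to vary like the other groups.

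These log2 fold changes turned direction. EGR1 at 24 h against control was 0.27 with the replicate block. JUN at 3 days against control was -0.035 with upper-quartile scaling, -0.013 with a filter of 50 counts in 2 libraries and -0.071 without both late libraries of replicate 2. Without both late libraries of replicate 1, the values at 3 days against control were 0.21 for EGR1 and -0.34 for ATF3. At 7 days they were 0.21 for JUN, 0.0084 for JUND, 0.10 for EGR1 and -0.052 for ATF3, and in late against early 0.20 for EGR1 and -0.41 for ATF3. With each library left out in turn, the values at 24 h against control ran from -0.67 to 1.21 for FOS, -0.15 to 0.21 for JUNB, -0.19 to 0.52 for JUND, -0.79 to 0.38 for EGR1 and -0.16 to 0.90 for EGR2. At 3 days they ran from -0.11 to 0.13 for JUN, -2.48 to 0.21 for EGR1, -0.079 to 0.74 for EGR2 and -0.35 to 2.33 for ATF3. At 7 days they ran from -0.25 to 0.20 for JUN, -0.070 to 0.0056 for JUND, -2.997 to 0.10 for EGR1, -0.066 to 0.76 for EGR2 and -0.055 to 2.19 for ATF3. In late against early they ran from -0.20 to 0.15 for JUND and -0.14 to 0.36 for EGR2. FOS and FOSB kept their direction in late against early under every alternative run there. The 15 to 30 reads of NR4A1 limit what could be detected for it.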

Other observations

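Heat shock and chaperone genes, which protein damage induces, had no called member in the contrast of 3 and 7 days with control and 24 h. Of 11 listed, 10 were tested, 6 of them higher and 4 lower, and the median of their log2 fold changes was 0.19. HSPD1, the mitochondrial chaperonin, had the smallest p, at 0.44 ± 0.21 (edgeR, unadjusted p = 0.0741, adjusted p = 0.377), with 1048 and 790.5 CPM at 3 days and 1167 and 822.4 CPM at 7 days, against 838.9 and 663.4 CPM in control and 540.5 and 787.1 CPM at 24 h. HSPA1A, an inducible HSP70 gene that is uncertain here because of its near-identical copy, stayed between 0.925 and 2.28 CPM.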
